A study of Mus musculus with 18 samples.

Results

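SR proteins, hnRNP proteins and other regulators of pre-mRNA splicing were followed here in mouse lung fibroblasts that had or had not invaded a collagen gel. The set was defined by gene symbol, and of 43 listed genes 39 had a probe set carrying their symbol alone. Where a gene had several such probe sets, the brightest stood for it. These 39 are part of 19938 genes measured in this way. By role they fall into 9 SR proteins, 6 SR-related proteins, 3 CLK kinases, 6 RBM and LUC7 proteins, 11 hnRNP proteins and 4 DEAD-box helicases and others. The other 4 listed genes (Srsf7, Clk2, Hnrnpa1 and Hnrnpa3) lacked such a probe set and are not among the 39. Probe sets that carry further symbols besides Clk2, Hnrnpa1 or Hnrnpa3 are described at the end. None of the 39 was left out for a low signal.

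The cells were MLg 2908 fibroblasts, 1 established line from the lung of newborn ddY mice with WT genotype. They were plated on a 3D collagen gel, and cells that had entered the gel (the invading fraction) were separated from those that had stayed on top (the non-invading fraction). RNA was measured in 18 samples, 5 invading and 5 non-invading after 96 hours, and 4 invading and 4 non-invading after 72 hours. The study calls each column of its array heatmaps 1 independent experiment, but both fractions were separated from the same cultures. It used paired t-tests for receptor levels taken from these arrays, while the labels do not say which samples share a culture. The 18 samples are therefore not all independent, and the main fits here did not pair them. The labels name TGFB1 with the assay for every sample, while the titles carry no treatment and the study marks the array samples as non-treated, so which holds cannot be told from the labels. All values are levels on the log2 scale, and a ratio is the invading over the non-invading mean, or the 96 hour over the 72 hour mean. A gene was called higher or lower at an adjusted p under 0.10.

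During splicing the spliceosome removes introns, and which exons it joins depends on proteins that bind the pre-mRNA. SR proteins carry a domain rich in serine and arginine and mostly favour the use of the exon they bind, hnRNP proteins coat nascent RNA and often favour exon skipping, and CLK kinases phosphorylate SR proteins in the nucleus. Many of these factors control the splicing and decay of their own transcripts.

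Promoters are shown for 3 genes with lower levels in invading cells at both times, Clk4, Luc7l3 and Srsf2, and for Srsf9, which was higher at both. Each line gives the 250 bases before the transcription start in RefSeq (GRCm38.p6), 5′ to 3′ on the strand of the gene, and 35 of the 39 genes matched an entry of that table. Capitals mark a GC box (GGGCGG or CCGCCC) and, in Clk4, a cAMP response element (TGACGTCA). Their positions are chr11:51262864-51263113 (plus strand) for Clk4, chr11:94321964-94322213 (minus strand) for Luc7l3, chr11:116853095-116853344 (minus strand) for Srsf2 and chr5:115326927-115327176 (plus strand) for Srsf9.
Clk4: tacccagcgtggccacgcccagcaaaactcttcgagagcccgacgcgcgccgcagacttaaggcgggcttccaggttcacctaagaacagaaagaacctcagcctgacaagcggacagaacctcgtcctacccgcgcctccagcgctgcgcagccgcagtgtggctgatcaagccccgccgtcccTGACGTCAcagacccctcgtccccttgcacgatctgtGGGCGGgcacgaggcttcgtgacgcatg
Luc7l3: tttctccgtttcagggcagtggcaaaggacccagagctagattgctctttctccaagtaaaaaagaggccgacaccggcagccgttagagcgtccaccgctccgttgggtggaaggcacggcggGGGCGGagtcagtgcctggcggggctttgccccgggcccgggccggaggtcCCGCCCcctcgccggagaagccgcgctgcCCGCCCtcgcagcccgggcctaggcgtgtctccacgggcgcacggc
Srsf2: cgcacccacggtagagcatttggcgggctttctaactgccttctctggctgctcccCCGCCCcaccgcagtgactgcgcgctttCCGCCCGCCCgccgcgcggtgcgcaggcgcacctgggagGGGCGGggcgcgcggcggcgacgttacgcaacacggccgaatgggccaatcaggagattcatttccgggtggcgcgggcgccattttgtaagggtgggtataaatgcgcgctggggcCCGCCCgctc
Srsf9: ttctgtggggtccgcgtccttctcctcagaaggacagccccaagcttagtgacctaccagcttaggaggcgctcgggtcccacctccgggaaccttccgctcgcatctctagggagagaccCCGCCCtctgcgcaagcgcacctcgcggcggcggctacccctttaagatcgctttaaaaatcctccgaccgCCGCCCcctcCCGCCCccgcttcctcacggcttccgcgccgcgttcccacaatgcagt

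A GC box on either strand lay in 24 of the 35 promoters (68.6%), against 35.4% of the 27025 genes in the table. Overlapping boxes, as in Srsf2, were counted once per gene. The table holds more genes than the 19938 measured, and its shares were not matched to the 35 for gene type or level. The letters TGACGTCA, which read the same on both strands, were found in Clk4 and Tra2a (5.71%), against 1.77% of all genes. CCGGAAG or CTTCCGG, letters of an ETS site, lay in 8 of the 35 (22.9%), against 7.83%, and CACGTG, an E-box, in 3 (8.57%), against 6.86%. A longer CG-rich palindrome, the CGCG element, was in 0 of the 35 and in 0.448% of all genes. Of the 7 matched genes that were over 1.5-fold lower in the invading fraction at 72 hours, 4 held a GC box, 1 held TGACGTCA and 0 held the ETS letters. Among these, Rbm25, Rbm39 and Luc7l2 held none of the letters searched, and their promoters are not shown. The motifs were chosen after the sequences were seen, and a match is a description of letters in this window.

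In the invading fraction 20 of the 39 genes were lower and 7 higher at 96 hours, and 18 were lower and 2 higher at 72 hours. Over all genes 14.7% were lower and 16.7% higher at 96 hours, and 13.5% were lower and 13% higher at 72 hours. The median log2 level was 10.24 for the 39 genes and 7.14 over all genes. Shares over all genes, here and below, were not matched for level, and the part of level in the difference was not tested. The 18 genes that were lower at 72 hours were all lower at 96 hours as well (46.2% of the 39, against 9.6% of all genes), and none of the 39 was called in opposite directions. A decrease of over 1.5-fold was reached by 5 genes at 96 hours (2.02% of all genes) and by 10 at 72 hours (2.7%). At either time 0 genes of the set were over 1.5-fold higher, against 1.14% of all genes at 96 hours and 0.873% at 72 hours. The listed gene Hnrnpa3, left out for its shared symbols, was over 1.5-fold higher at 96 hours in most of its probe sets (log2 ratios of 0.51 to 0.71). The median log2 ratio of the set was -0.16 at 96 hours, against 0.02 over all genes, and -0.17 at 72 hours, against 0.04. In bulk RNA, fewer cells carrying a transcript and less of it per cell cannot be told apart.

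The ranges did not overlap for 24 of the 39 genes at 96 hours, 6 with the invading samples above and 18 with them below, against 9.35% above and 8.8% below over all genes. At 72 hours 3 lay above and 16 below, against 12.5% and 12.3%. Calls of small changes depended in part on how the arrays were centred, as the last counts of this paragraph show. The median of 6617 unnamed low-numbered probe sets of the array was 5.39 to 5.59 in the invading samples and 5.97 to 6.2 in the non-invading samples at 96 hours. After 72 hours these ranges were 5.37 to 5.47 and 5.81 to 6. The cause of this difference between the fractions and its part in the result were not tested. With each array centred on the median of all its probe sets, 16 of the 39 genes were lower and 14 higher at 96 hours, when the median over all genes was 0.14, and 16 were lower and 3 higher at 72 hours, when it was 0.12.

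**Figure D1:**
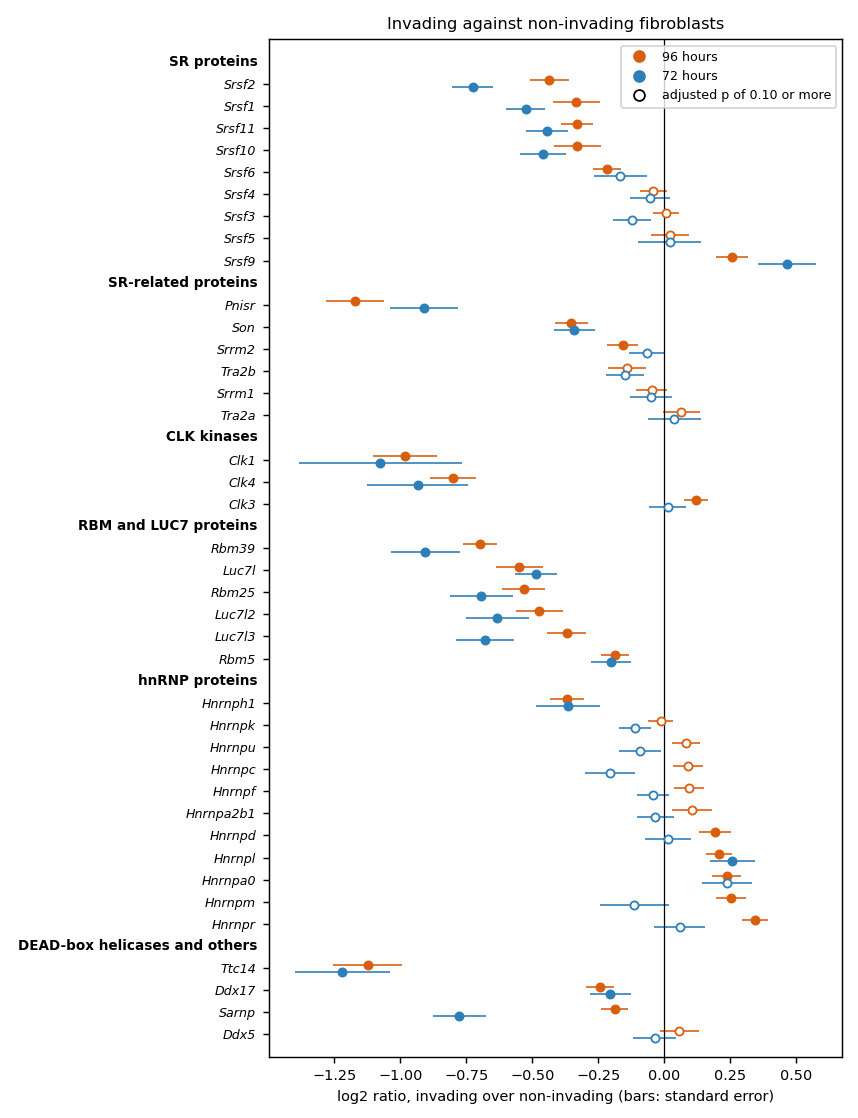
Log2 ratio of the invading over the non-invading mean (horizontal axis) for the 39 splicing regulators by role, at 96 hours (orange) and 72 hours (blue), with bars for the standard error and open circles for an adjusted p of 0.10 or more. The RBM and LUC7 proteins all lie below 0 at both times, from -0.19 to -0.70 at 96 hours, while most hnRNP proteins lie near or above 0 at 96 hours, up to 0.34.

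Markers of the labelled cell type were present. Of 10 lung fibroblast markers 9 had a mean linear signal above 100 (Thy1 did not), against 1 of 8 epithelial, 1 of 6 leukocyte and at most 1 of 6 endothelial markers. The mean of the fibroblast markers was 11.64 to 11.79 in the invading samples and 11.69 to 11.90 in the non-invading samples at 96 hours. After 72 hours it was 11.65 to 11.78 in the invading samples and 11.76 to 11.85 in the non-invading samples. The epithelial mean was 5.77 to 5.87 in the invading samples and 5.61 to 5.78 in the non-invading samples at 96 hours. After 72 hours it was 5.90 to 6.03 in the invading samples and 5.68 to 5.91 in the non-invading samples. The endothelial and leukocyte means stayed between 5.49 and 5.91 in all samples. In the test 4 of the 10 fibroblast markers (Col1a1, Col1a2, Col3a1 and S100a4) were lower in invading cells at both times, with log2 ratios of -0.20 to -0.35. Pdgfrb was higher at 72 hours (0.27), and 3 of the 8 epithelial markers were higher at 96 hours and 1 at 72 hours, of which Krt8 had the largest log2 ratios (0.32 and 0.53). Of the other markers, 1 of 6 leukocyte ones (Cd68, 0.56) and 0 of 6 endothelial ones passed at 96 hours, and 0 of either at 72 hours. The part of these shifts in the result was not tested.

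Among the SR proteins, 5 of 9 were lower in the invading fraction at 96 hours and 4 of 9 at 72 hours, and 1, Srsf9, was higher at both. Srsf2, which binds exonic enhancers and is needed for spliceosome assembly, showed the largest decrease of the family among the brightest probe sets. It read 11.46, 11.47, 11.35, 11.34 and 11.10 in the invading samples at 96 hours, against 11.69, 11.82, 11.77, 11.86 and 11.74 in the non-invading samples. After 72 hours it read 11.06, 10.91, 11.13 and 11.18, against 11.81, 11.78, 11.70 and 11.89. Every invading sample lay below every non-invading sample of its time. The log2 ratio was -0.44 ± 0.074 (SE, adjusted p = 0.0015) at 96 hours and -0.73 ± 0.078 (adjusted p = 0.00082) at 72 hours.

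Srsf1, a founding member of the family, had ratios of 0.794 at 96 hours (adjusted p = 0.017) and 0.695 at 72 hours (adjusted p = 0.002). Srsf10 and Srsf11 had ratios of 0.796 and 0.795 at 96 hours, and of 0.727 and 0.735 at 72 hours, and all 4 passed the test. Srsf6 was lower at 96 hours (0.86, adjusted p = 0.01) and had a ratio of 0.891 at 72 hours (adjusted p = 0.3). Srsf9, an SR protein with a short serine and arginine domain, ran the other way, with ratios of 1.2 at 96 hours (adjusted p = 0.0096) and 1.38 at 72 hours (adjusted p = 0.015), and its invading samples lay above all non-invading samples at both times. Srsf3, Srsf4 and Srsf5 had ratios between 0.919 and 1.01 at the 2 times in their brightest probe sets, and none of these passed. A further Srsf3 probe set passed as lower at both times and is described below.

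Of the SR-related proteins 3 of 6 were lower at 96 hours and 2 of 6 at 72 hours, and 0 were higher. Pnisr, a serine and arginine rich protein of nuclear speckles, was the lowest. Its levels were 9.12, 8.96, 8.77, 8.75 and 8.66 in the invading samples at 96 hours, against 9.92, 10.11, 10.14, 9.71 and 10.24 in the non-invading samples. At 72 hours they were 8.54, 8.18, 8.49 and 8.35, against 9.23, 8.99, 9.48 and 9.50. The groups stood apart at both times, with ratios of 0.443 (log2 ratio -1.17 ± 0.11, adjusted p = 6.7e-05) at 96 hours and 0.532 (-0.91 ± 0.13, adjusted p = 0.0021) at 72 hours.

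Son, a large scaffold protein of nuclear speckles, was lower at both times, with ratios of 0.783 (adjusted p = 0.0021) at 96 hours and 0.789 (adjusted p = 0.015) at 72 hours. Srrm2, the other speckle scaffold, passed at 96 hours with overlapping groups (0.897, adjusted p = 0.069) and had a ratio of 0.956 at 72 hours (adjusted p = 0.55). The Srrm2 call was lost in 8 of 10 fits that left out 1 library, all but those without invading replicate 1 or non-invading replicate 4 (adjusted p = 0.1 to 0.14). Srrm1, a coactivator that bridges SR proteins to the spliceosome, had ratios of 0.967 and 0.966 and did not pass. Tra2a and Tra2b, which bind purine-rich enhancers, did not pass in their brightest probe sets, with ratios of 1.05 and 0.907 at 96 hours.

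At both times the kinases Clk1 and Clk4 were lower in invading cells, and their paralogue Clk3 was not. Clk1 read 10.18, 9.81, 9.97, 9.53 and 9.91 in the invading samples at 96 hours, against 10.85, 10.82, 10.99, 10.63 and 11.02 in the non-invading samples. At 72 hours the invading samples read 8.46, 8.78, 9.84 and 9.39, against 9.81, 9.86, 10.36 and 10.76 in the non-invading samples. The groups stood apart at 96 hours and overlapped at 72 hours, where invading replicate 3 reached into the non-invading range. The ratio was 0.506 (log2 ratio -0.98 ± 0.12, adjusted p = 0.00019) at 96 hours and 0.474 (-1.08 ± 0.31, adjusted p = 0.039) at 72 hours.

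Clk4 read 9.07, 8.75, 8.68, 8.66 and 8.65 in the invading samples at 96 hours, against 9.50, 9.59, 9.65, 9.41 and 9.66 in the non-invading samples. At 72 hours it read 8.04, 8.05, 8.59 and 8.39, against 8.93, 8.88, 9.36 and 9.64. The groups did not overlap at either time, and the ratio was 0.574 (log2 ratio -0.80 ± 0.087, adjusted p = 0.00013) at 96 hours and 0.523 (-0.94 ± 0.19, adjusted p = 0.0096) at 72 hours. Clk3 had a ratio of 1.09 at 96 hours (adjusted p = 0.076) and 1.01 at 72 hours (adjusted p = 0.92). The first was lost in 7 of 10 fits without 1 library, all but those without invading replicate 1 or non-invading replicate 4 or 5 (adjusted p = 0.11 to 0.16).

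**Figure D2:**
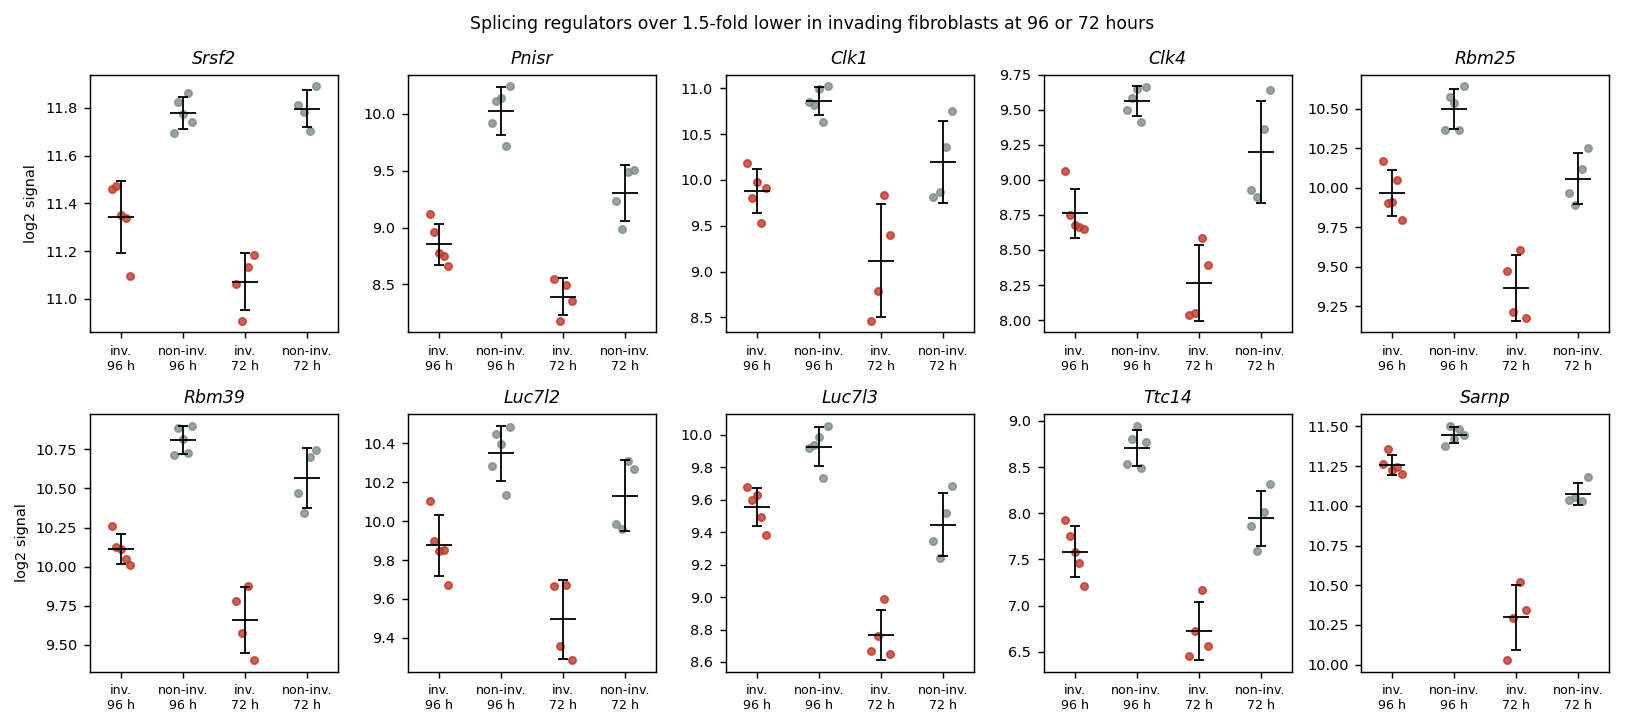
Log2 level of each sample (points, vertical axis) for splicing regulators over 1.5-fold lower in the invading fraction at 96 or 72 hours, by group of fraction and time, with a bar for the group mean and whiskers for its SD. Invading samples lie below the non-invading samples of their time in every panel except Clk1 at 72 hours, where the ranges overlap.

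At both times all 6 RBM and LUC7 proteins were lower in invading cells, with median log2 ratios of -0.50 at 96 hours and -0.66 at 72 hours. Rbm39, a U2AF-related protein, read 10.26, 10.12, 10.12, 10.05 and 10.01 in the invading samples at 96 hours, against 10.71, 10.89, 10.81, 10.73 and 10.90 in the non-invading samples. The 72 hour values were 9.78, 9.58, 9.88 and 9.40 in the invading samples, against 10.47, 10.34, 10.70 and 10.74. Its groups stood clearly apart at both times. The ratio was 0.617 (log2 ratio -0.70 ± 0.063, adjusted p = 4.9e-05) at 96 hours and 0.534 (-0.91 ± 0.13, adjusted p = 0.002) at 72 hours.

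Rbm25, a regulator of splice site choice that associates with the U1 particle, read 10.17, 9.91, 9.91, 10.05 and 9.80 in the invading samples at 96 hours, against 10.37, 10.58, 10.54, 10.37 and 10.64 in the non-invading samples. Its 72 hour values were 9.47, 9.21, 9.61 and 9.18, against 9.97, 9.89, 10.12 and 10.26. No invading value reached a non-invading one, and the ratio was 0.691 (log2 ratio -0.53 ± 0.082, adjusted p = 0.00087) at 96 hours and 0.619 (-0.69 ± 0.12, adjusted p = 0.0046) at 72 hours. Rbm5, which regulates exons of apoptosis genes in human cells, moved least of the group, with ratios of 0.879 (adjusted p = 0.025) at 96 hours and 0.869 (adjusted p = 0.09) at 72 hours. The Rbm5 call at 72 hours was lost without invading replicate 1, 2 or 4 or non-invading replicate 3 or 4 (adjusted p = 0.14 to 0.21).

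The LUC7 proteins are relatives of a yeast U1 component that takes part in the choice of 5′ splice sites. Luc7l3 read 9.68, 9.60, 9.63, 9.50 and 9.38 in the invading samples at 96 hours, against 9.92, 9.94, 9.99, 9.73 and 10.06 in the non-invading samples. After 72 hours the levels were 8.67, 8.76, 8.99 and 8.65, against 9.34, 9.24, 9.52 and 9.68. The invading samples were the lower ones throughout, with a ratio of 0.774 (log2 ratio -0.37 ± 0.075, adjusted p = 0.0041) at 96 hours and 0.624 (-0.68 ± 0.11, adjusted p = 0.0041) at 72 hours.

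Luc7l2 read 10.11, 9.90, 9.84, 9.85 and 9.67 in the invading samples at 96 hours, against 10.29, 10.45, 10.39, 10.13 and 10.48 in the non-invading samples. The samples of 72 hours read 9.67, 9.36, 9.67 and 9.29, against 9.99, 9.96, 10.31 and 10.27. The narrowest gap was at 96 hours, between invading replicate 1 and non-invading replicate 4. The ratio was 0.72 (log2 ratio -0.47 ± 0.089, adjusted p = 0.0026) at 96 hours and 0.645 (-0.63 ± 0.12, adjusted p = 0.0075) at 72 hours. Luc7l was at 0.683 of the non-invading level at 96 hours (adjusted p = 0.0012) and at 0.714 at 72 hours (adjusted p = 0.004), again with no overlap.

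Of the 11 hnRNP proteins, 5 were higher, 1 was lower and 5 did not pass at 96 hours, with a median log2 ratio of 0.10. At 72 hours 1 was higher, 1 was lower and the median was -0.04. Hnrnph1, which binds runs of G, was the lower one at both times. It read 11.09, 11.02, 11.02, 11.01 and 10.77 in the invading samples at 96 hours, against 11.30, 11.44, 11.39, 11.30 and 11.33 in the non-invading samples. In the 72 hour samples it read 10.43, 10.27, 10.77 and 10.68, against 10.89, 10.71, 10.98 and 11.03, and the ranges overlapped. The ratio was 0.774 (log2 ratio -0.37 ± 0.065, adjusted p = 0.0018) at 96 hours and 0.776 (-0.36 ± 0.12, adjusted p = 0.064) at 72 hours. The 72 hour call was lost without invading replicate 1 or 2 or non-invading replicate 1, 3 or 4 (adjusted p = 0.11 to 0.15).

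Hnrnpa3, left out of the set, had larger log2 ratios at 96 hours in all its probe sets. Among the hnRNP genes of the set Hnrnpr, a protein closely related to Syncrip, had the largest increase at that time. It read 9.34, 9.32, 9.32, 9.32 and 9.37 in the invading samples at 96 hours, against 8.95, 9.11, 8.99, 9 and 8.90 in the non-invading samples. At 72 hours it read 8.50, 8.48, 8.63 and 8.27, against 8.59, 8.27, 8.44 and 8.34. The groups stood apart at 96 hours (ratio 1.27, log2 ratio 0.34 ± 0.05, adjusted p = 0.00058) and overlapped at 72 hours (ratio 1.04, adjusted p = 0.72).

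Hnrnpl, which binds CA repeats, was higher at both times (1.15, adjusted p = 0.0098, at 96 hours and 1.2, adjusted p = 0.06, at 72 hours), with no overlap. Its 72 hour call was lost without invading replicate 2, 3 or 4 or non-invading replicate 3 or 4 (adjusted p = 0.11 to 0.14). Hnrnpm and Hnrnpd passed at 96 hours, with ratios of 1.19 and 1.14 and adjusted p-values of 0.0065 and 0.039, and had ratios of 0.924 and 1.01 at 72 hours. Hnrnpa0 had a ratio of 1.18 at both times, with no overlap at either, and passed at 96 hours (adjusted p = 0.0079) but not at 72 hours (adjusted p = 0.12), where it passed in 7 of 18 alternatives. The difference between the times passed for none of them (adjusted p = 0.43 for Hnrnpm and 0.42 for Hnrnpr). Hnrnpa2b1, Hnrnpc, Hnrnpf, Hnrnpk and Hnrnpu lay between -0.01 and 0.10 in log2 ratio at 96 hours and between -0.21 and -0.03 at 72 hours, and none passed. With each array centred on the median of all its probe sets, Hnrnpa2b1, Hnrnpc, Hnrnpf and Hnrnpu also passed as higher at 96 hours.

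**Figure D3:**
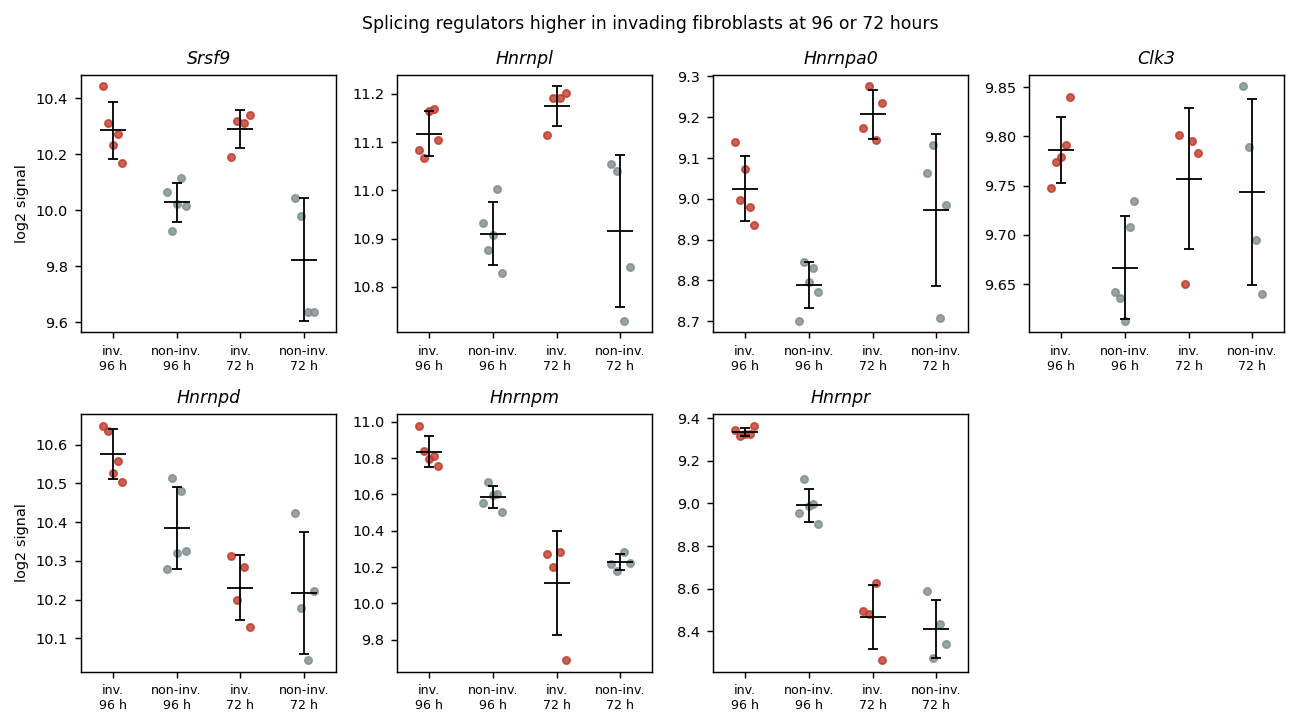
Log2 level of each sample (points, vertical axis) for splicing regulators called higher in the invading fraction at 96 or 72 hours, by group of fraction and time, with a bar for the group mean and whiskers for its SD. The invading samples of Hnrnpr lie between 9.32 and 9.37 at 96 hours, above the non-invading samples at 8.90 to 9.11, while the groups overlap at 72 hours.

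Among the remaining genes, Ttc14, a tetratricopeptide repeat protein, had the lowest ratio of all 39 at 72 hours. It read 7.92, 7.75, 7.58, 7.46 and 7.21 in the invading samples at 96 hours, against 8.53, 8.81, 8.95, 8.48 and 8.77 in the non-invading samples. After 72 hours Ttc14 read 6.45, 6.72, 7.16 and 6.56, against 7.86, 7.59, 8.01 and 8.31. The groups stood apart at both times, and the ratio was 0.459 (log2 ratio -1.12 ± 0.13, adjusted p = 0.0002) at 96 hours and 0.429 (-1.22 ± 0.18, adjusted p = 0.0027) at 72 hours. Of the helicases, Ddx17 was lower at both times (0.844, adjusted p = 0.0051, at 96 hours and 0.868, adjusted p = 0.094, at 72 hours), and its paralogue Ddx5 had ratios of 1.04 and 0.975 and did not pass. The Ddx17 call at 72 hours was lost in 6 of 8 fits without 1 library, all but those without invading replicate 3 or non-invading replicate 1 (adjusted p = 0.12 to 0.19).

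Sarnp, an RNA-binding protein of the mRNA export machinery, was the gene whose ratio differed between the times. It read 11.26, 11.36, 11.22, 11.24 and 11.20 in the invading samples at 96 hours, against 11.38, 11.51, 11.42, 11.48 and 11.45 in the non-invading samples. The 72 hour samples read 10.03, 10.30, 10.52 and 10.34, against 11.03, 11.05, 11.03 and 11.18. The groups did not overlap at either time, but the gap was narrow at 96 hours. The ratio was 0.878 (log2 ratio -0.19 ± 0.05, adjusted p = 0.016) at 96 hours and 0.584 (-0.78 ± 0.10, adjusted p = 0.0016) at 72 hours. The difference between the times was 0.59 ± 0.11 on the log2 scale (adjusted p = 0.084), the 1 call among the 39 genes, where 0.015% of all genes passed. That call was lost in 16 of the 18 fits that left out 1 library, all but those without invading replicate 3 at 72 hours or invading replicate 5 at 96 hours (adjusted p = 0.11 to 0.17 where lost). A further probe set of Sarnp had log2 ratios of -0.18 at 96 hours and -0.78 at 72 hours.

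Set against 72 hours, most of the genes were higher at 96 hours in both fractions. In the invading fraction 30 of the 39 were higher and 1 lower, against 18.2% and 16.7% of all genes, with a median log2 ratio of 0.34, against -0.03 over all genes. In the non-invading fraction 26 were higher and 1 lower, against 15.4% and 12.2% of all genes, with a median of 0.24, against -0.02. In both fractions 25 genes were higher, against 12.5% of all genes. The 2 fractions share no samples but were separated from the same cultures, and both changes came from 1 fit. Their agreement is thus not independent. The 96 hour samples lay wholly above the 72 hour samples for 21 genes in the invading fraction (13.3% of all genes) and for 20 in the non-invading fraction (12.2%), and wholly below for 1 (10.3%) and 0 (7.8%). Nothing in the labels says whether the arrays of the 2 times were run together, so time and array batch cannot be told apart.

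By role, 6 of 9 SR proteins, 3 of 6 SR-related proteins, 2 of 3 CLK kinases, 6 of 6 RBM and LUC7 proteins, 9 of 11 hnRNP proteins and 4 of 4 of the others were higher at 96 hours in the invading fraction. In the non-invading fraction the counts were 4, 3, 2, 5, 8 and 4. Ratios over 1.5 were reached by 8 genes in the invading fraction (2.65% of all genes) and by 3 in the non-invading fraction (1.39%), and 0 were over 1.5-fold lower (0.386% and 0.577% of all genes). Sarnp rose 1.95-fold in the invading fraction (adjusted p = 2.8e-07) and 1.29-fold in the non-invading fraction (adjusted p = 0.002). Hnrnpr rose 1.82-fold (adjusted p = 5e-07) and 1.5-fold (adjusted p = 4.1e-05), and its levels at 96 hours lay above those at 72 hours in both fractions.

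Ttc14 rose 1.81-fold in the invading fraction (adjusted p = 0.001) and 1.70-fold in the non-invading fraction (adjusted p = 0.0037). Luc7l3 rose 1.73-fold and 1.39-fold, and Hnrnpm 1.65-fold and 1.28-fold, in the same order of fractions, and all 4 changes passed. Pnisr was one of the genes with the larger estimate in the non-invading fraction, at 1.37-fold in the invading fraction (adjusted p = 0.013) and 1.65-fold in the non-invading fraction (adjusted p = 0.00074). Clk1 rose 1.69-fold in the invading fraction (adjusted p = 0.025) and 1.59-fold in the non-invading fraction (adjusted p = 0.055), with overlapping ranges in both. The Clk1 call was lost in the invading fraction without replicate 1 at 72 hours (adjusted p = 0.1). In the non-invading fraction it was lost without replicate 1 or 2 at 72 hours or replicate 3 or 5 at 96 hours (adjusted p = 0.1 to 0.17).

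Srsf3, one of the smallest SR proteins, did not pass the test between the fractions in its brightest probe set. That probe set rose with time in both fractions. It read 12.59, 12.64, 12.58, 12.63 and 12.48 in the invading samples at 96 hours, against 11.91, 11.80, 12.02 and 12.01 at 72 hours. In the non-invading samples it read 12.51, 12.62, 12.58, 12.63 and 12.55 at 96 hours, against 12.12, 12.01, 11.99 and 12.11 at 72 hours. The times stood apart in both fractions, at 1.57-fold (adjusted p = 7.4e-07) and 1.43-fold (adjusted p = 1.3e-05). Srsf3 probe set 10424379 also rose in both, by 0.67 and 0.49 on the log2 scale. Srsf3 probe set 10443459 rose in the invading fraction (0.62, adjusted p = 0.004) but did not pass in the non-invading one (0.16, adjusted p = 0.48). Srsf1 and Srsf2 rose in the invading fraction (1.17-fold, adjusted p = 0.055, and 1.21-fold, adjusted p = 0.014), and had ratios of 1.03 and 0.988 in the non-invading fraction, where neither passed. For neither gene did the difference between the times pass (adjusted p = 0.71 and 0.44). Hnrnpa0 was the 1 gene that was lower at 96 hours, with a ratio of 0.881 in both fractions (adjusted p = 0.078 and 0.088). That call was lost in 6 of 9 fits without 1 library in each fraction, all but those without replicate 3 at 72 hours or replicates 1 or 3 at 96 hours (invading, adjusted p = 0.11 to 0.18) and replicate 3 at 72 hours or replicates 2 or 4 at 96 hours (non-invading, adjusted p = 0.13 to 0.28). The Srsf1 call was lost without invading replicate 1 or 2 at 72 hours or invading replicate 1, 2 or 4 at 96 hours (adjusted p = 0.11 to 0.17).

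**Figure D4:**
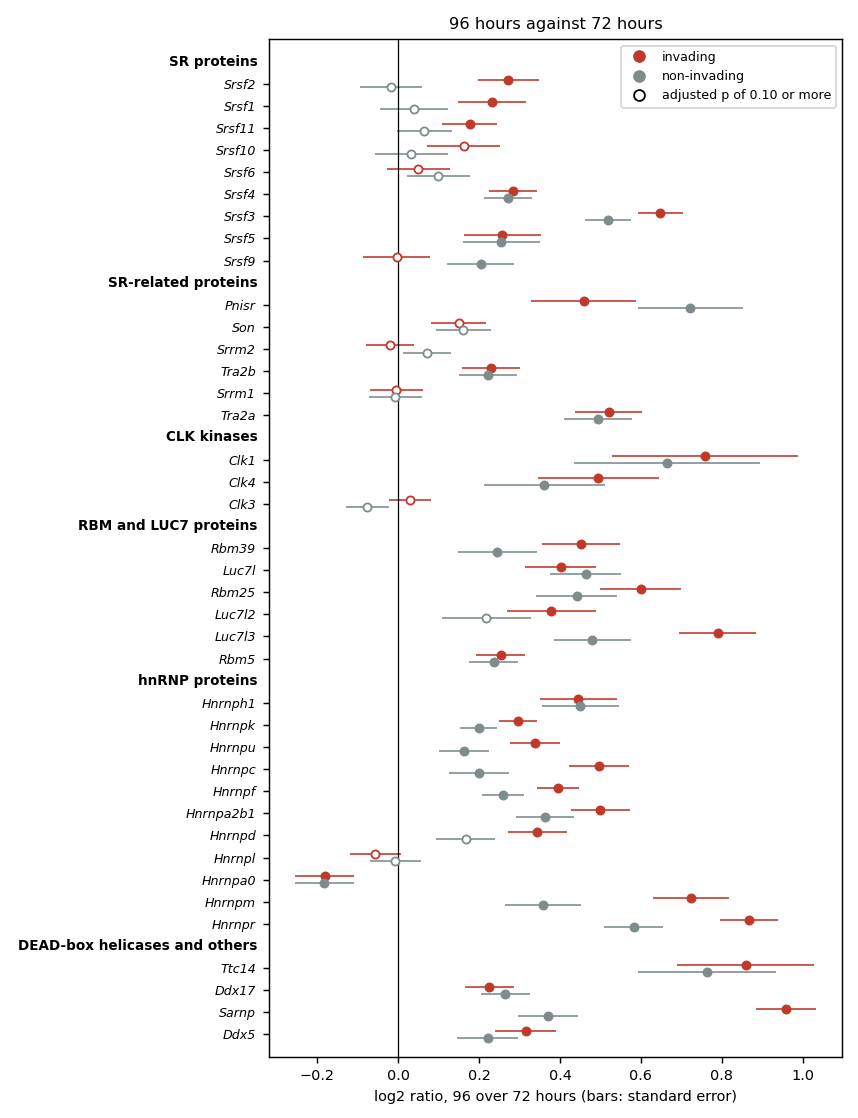
Log2 ratio of the 96 hour over the 72 hour mean (horizontal axis) for the 39 splicing regulators by role, in the invading and the non-invading fraction, with bars for the standard error and open circles for an adjusted p of 0.10 or more. Most points lie right of 0, with medians of 0.34 in the invading fraction and 0.24 in the non-invading fraction.

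For several genes further probe sets gave other ratios than the brightest one. For Tra2a, probe set 10544638 read 8.06, 7.56, 7.48, 7.65 and 6.95 in the invading samples at 96 hours, against 8.97, 9.05, 9.12, 8.80 and 9.07 in the non-invading samples. At 72 hours it read 7.20, 7.60, 7.85 and 7.40, against 8.39, 8.08, 8.49 and 8.66. It thus stood wholly below at both times, with log2 ratios of -1.46 (adjusted p = 0.00015) and -0.90 (adjusted p = 0.0053) at 96 and 72 hours. Probe set 10544640 of Tra2a had log2 ratios of -0.89 (adjusted p = 0.0001) and -0.43 (adjusted p = 0.017). Over time, probe sets 10544638 and 10544640 did not pass in the invading fraction (0.03, adjusted p = 0.92, and -0.07, adjusted p = 0.68). The brightest Tra2a probe set had 0.52 there (adjusted p = 0.00019). In the non-invading fraction both further probe sets rose (0.60, adjusted p = 0.022, and 0.39, adjusted p = 0.0099).

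The brightest Tra2a probe set had log2 ratios of 0.07 and 0.04 at 96 and 72 hours. The gap to it in log2 ratio was -1.52 for probe set 10544638 and -0.96 for 10544640 at 96 hours, and -0.93 and -0.47 at 72 hours. Each gap had the smallest p that an exact permutation test of these samples allows, two-sided, 0.0079 at 96 hours and 0.029 at 72 hours. Over the 34 such gaps of all the genes, tested after their values were seen, these p-values adjusted to 0.067 and 0.11.

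Rbm25 showed the reverse order at 96 hours, when probe sets 10397081 and 10397083 had log2 ratios of 0.03 and -0.05, against -0.53 for the brightest, gaps of 0.56 and 0.49 (exact permutation p = 0.0079 for each, adjusted p = 0.067). A further Srsf3 probe set, 10443459, had log2 ratios of -0.29 (adjusted p = 0.062) at 96 hours and -0.74 (adjusted p = 0.016) at 72 hours, and the further Tra2b probe set had -0.03 at 96 hours and -0.53 (adjusted p = 0.016) at 72 hours. The part of each transcript that a probe set covers was not analysed here.

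Other genes of the splicing machinery did not share one direction. Over all genes 16.7% were higher and 14.7% lower in invading cells at 96 hours, and 13% and 13.5% at 72 hours. None of the further lists was tested against these shares, and counts near them are not read as results about a list. Of 41 measured genes of the core spliceosome, 18 were higher in invading cells at 96 hours and 3 were lower, and 11 and 5 at 72 hours, with median log2 ratios of 0.13 and 0.06. The largest at 96 hours were Sf3a2, of the U2 particle (0.42, adjusted p = 0.0012), the helicase Ddx23 (0.41, adjusted p = 0.00022) and Snrpd1, an Sm protein (0.38, adjusted p = 0.022). At 72 hours they were Sf3b2 (0.46, adjusted p = 0.0026) and the helicases Dhx38 (0.45, adjusted p = 0.027) and Ddx46 (-0.45, adjusted p = 0.012).

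Of 43 measured further splicing regulators outside the 39, 4 were higher and 16 lower at 96 hours, and 5 were higher and 18 lower at 72 hours, with medians of -0.07 and -0.09. Tia1, which binds U-rich RNA next to 5′ splice sites, had log2 ratios of -0.80 (adjusted p = 0.00051) at 96 hours and -0.78 (adjusted p = 0.0027) at 72 hours. Ptbp2, the neuronal polypyrimidine tract binding protein, had -0.77 (adjusted p = 9.5e-05) and -0.94 (adjusted p = 0.0022). Prpf4b, a kinase of the spliceosome, had -0.76 (adjusted p = 7.2e-05) at 96 hours, and Nktr, a cyclophilin with a serine and arginine domain, had -0.70 (adjusted p = 0.0042) at 72 hours.

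Of 12 SR protein kinases and phosphatases, 2 were higher and 4 lower at 96 hours, and 3 were higher and 3 lower at 72 hours. Prpf4b, which is in both lists, was the lowest at each time. For these small lists too, the shares over all genes were 16.7% higher and 14.7% lower at 96 hours. At 72 hours they were 13% and 13.5%. Of 7 measured nonsense-mediated decay genes, 2 were higher and 1 lower at 96 hours and 0 were higher and 1 lower at 72 hours. The lower one was the kinase Smg1, with log2 ratios of -0.54 (adjusted p = 0.0025) and -0.45 (adjusted p = 0.023).

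Across time, 18 core spliceosome genes rose and 4 fell in the invading fraction, with a median log2 ratio of 0.06. In the non-invading fraction 14 rose and 6 fell, with a median of 0.10. Over all genes 18.2% rose and 16.7% fell in the invading fraction, and 15.4% and 12.2% in the non-invading one. Snrpb2, a U2 protein, rose by 0.82 on the log2 scale in the invading fraction (adjusted p = 9.6e-07) and by 0.52 in the non-invading fraction (adjusted p = 0.00013). Of the further regulators 19 rose and 3 fell in the invading fraction, against 19 and 2 in the non-invading one. Ppig, a cyclophilin of nuclear speckles, rose by 0.78 (adjusted p = 1.1e-06) and 0.82 (adjusted p = 2.7e-06), and Rsrc2, a serine and arginine rich coiled-coil protein, by 0.79 (adjusted p = 1.1e-05) and 0.59 (adjusted p = 0.0003). Of the 7 decay genes 1 rose and 3 fell in the invading fraction, against 1 and 4 in the non-invading one, and Upf2 was the one that rose in both.

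**Figure D5:**
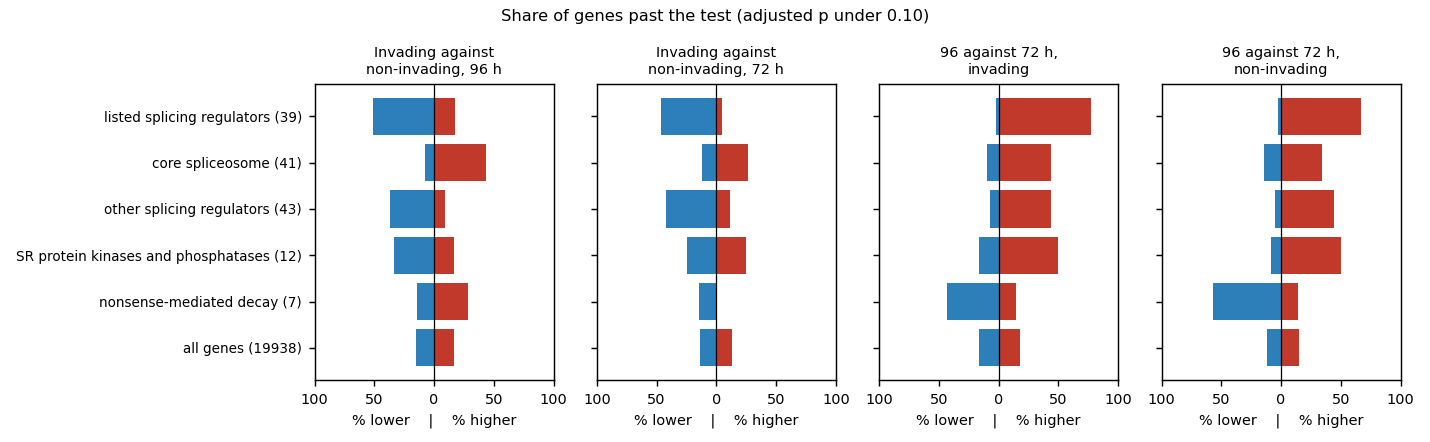
Share of genes called higher or lower (percent, horizontal axis) in each comparison for the 39 splicing regulators, the 4 further lists and all genes. In the invading against the non-invading fraction the 39 genes have the larger share on the lower side at 96 hours (20 of 39) and 72 hours (18 of 39), while the core spliceosome has it on the higher side.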

How the data were processed

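RNA of the 18 samples was hybridised to Affymetrix Mouse Gene 1.0 ST arrays. The deposited log2 values were made by the authors with RMA and sketch-quantile normalization in Expression Console (version 1.2 in the submitters' processing notes). They cover 35556 probe sets, ran from 2.94 to 14.7 and were used as deposited, so the number of arrays limits the precision. Symbols came from the array's annotation, and 21789 probe sets carry exactly 1.

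For each time the fractions were compared in a fit of their own, with no covariates, in limma (version 3.58.1, R 4.3.3), the tool of the study's methods. All 18 samples entered 1 fit for 96 against 72 hours and for the difference between times. Benjamini-Hochberg adjustment ran over all 35556 probe sets, and the scripts were tested on simulated data. Counts over all genes use the brightest probe set per gene.

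Values in every sample are given for genes past the adjusted p of 0.10 with a ratio over 1.5 between the fractions, for those past it in the difference between times, and for the 2 largest ratios of a role group with neither. Srsf3 over time and Tra2a's further probe sets were added after their values were seen. Of each further list the 3 largest ratios past the test qualify, and the text gives some of them. The genes and lists were chosen with earlier results of these data known. Proteins were not analysed here. Alternatives covered normalization, probe set filters, the moderation of the variance, the replicate number as a block, a stricter threshold, the mean over probe sets, the samples fitted and leaving out each sample.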

Additional observations from a re-analysis of the deposited data

Results flagged for a closer look

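A sample stood far from the rest of its group, by Dixon's criterion, in 11 of 156 combinations of gene and group, where chance gives about 1 in 20. Invading replicate 1 at 96 hours was high for Clk4 (9.07, others 8.65 to 8.75), Son (9.88, others 9.61 to 9.68) and Srrm2 (12.22, others 11.96 to 12.02). Invading replicate 5 at 96 hours was low for Hnrnpa2b1 (11.27, others 11.46 to 11.54), Hnrnph1 (10.77, others 11.01 to 11.09) and Tra2b (11.16, others 11.43 to 11.51). Non-invading replicate 4 at 96 hours was high for Srrm1 (9.83, others 9.65 to 9.70).

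At 72 hours invading replicate 1 was high for Ddx5 (11.97, others 11.81 to 11.82) and low for Hnrnpl (11.11, others 11.19 to 11.20). Invading replicate 2 was low for Clk3 (9.65, others 9.78 to 9.80), and invading replicate 4 was low for Hnrnpm (9.69, others 10.20 to 10.28).

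Sarnp was the gene of the set whose log2 ratio of invading over non-invading differed between the times by a test of that difference, at 0.59 (-0.19 at 96 hours and -0.78 at 72 hours, limma adjusted p = 0.084).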

How the results depend on the processing

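Of the calls between the fractions, 16 of 20 lower and 6 of 7 higher at 96 hours held in all 20 alternatives run, and 15 of 18 lower and 1 of 2 higher at 72 hours in all 18. Of the genes higher at 96 hours, 24 of 30 in the invading and 17 of 26 in the non-invading fraction held in all 19. Quantile normalization applied again left 26 higher in the invading fraction and 18 in the non-invading fraction. The median log2 ratio over time then went from 0.34 to 0.25 and from 0.24 to 0.20, in the same order. At an adjusted p under 0.05 the counts were 27 and 19. Centring each array on the median of all its probe sets gave 14 genes higher in the invading fraction at 96 hours in place of 7, with medians of -0.04 for the 39 genes and 0.14 for all genes, and ended the lower calls of Srsf6, Srrm2, Rbm5 and Sarnp. At 72 hours 1 gene was higher in place of 2 with the replicate block or at an adjusted p under 0.05. The block ended the 72 hour calls of Hnrnpl, Rbm5 and Ddx17, the Srsf9 call over time in the non-invading fraction and the Sarnp difference, and no other call. The 1 lower call over time (Hnrnpa0) became 2 calls with quantile normalization applied again in both fractions. It became 0 with centring on all probe sets or at an adjusted p under 0.05 in both fractions, and 0 in the non-invading fraction with centring on probe sets with 1 symbol or with only the groups compared fitted. The Sarnp difference between times left 0 calls with quantile normalization again, centring on probe sets with 1 symbol, only probe sets with 1 symbol, the replicate block or an adjusted p under 0.05. The mean over all its probe sets turned Tra2a round, to -0.76 (adjusted p = 0.00035) at 96 hours and -0.43 (adjusted p = 0.013) at 72 hours, since 2 of its 3 probe sets were lower. It also brought Srsf3 (-0.34, adjusted p = 0.039) and Tra2b (-0.34, adjusted p = 0.025) past the test as lower at 72 hours. The cause of the other changes was not tested.

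Leaving out each sample in turn gave 19 to 20 lower and 6 to 7 higher genes at 96 hours, and 15 to 19 lower and 1 to 3 higher at 72 hours. For 96 against 72 hours it gave 27 to 32 higher and 0 to 1 lower in the invading fraction, 19 to 25 higher and 0 to 1 lower in the non-invading fraction, and 0 to 1 higher for the difference between times. The group means were first removed. Invading and non-invading samples of 1 replicate number then had correlations of 0.049 to 0.169 at 96 hours and -0.075 to 0.087 at 72 hours. Best matches were with their own number in 4 of 5 and 1 of 4. The study separated both fractions from the same cultures and used paired t-tests for receptor levels of these arrays. The labels do not say if samples of 1 number share a culture, and these correlations do not settle it.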

Other observations

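The probe sets of Hnrnpa3 carry further symbols and were left out of the set. Over those 9 probe sets the log2 ratio of invading over non-invading was 0.51 to 0.71 at 96 hours (limma adjusted p = 0.00021 to 0.0014). At 72 hours it was 0.23 to 0.36 (adjusted p = 0.065 to 0.23). The probe sets of Hnrnpa1, left out likewise, had 0.16 to 0.23 at 96 hours (adjusted p = 0.015 to 0.032) and 0.04 to 0.18 at 72 hours. The probe set shared by Clk2 had -0.11 (adjusted p = 0.23) and -0.05 (adjusted p = 0.68).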
